A study of Mus musculus with 9 samples.

Results

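De novo fatty acid synthesis builds fatty acids from carbohydrate carbon, and 10 genes of this route were described across the cells of the mouse epididymal fat pad, which is a visceral adipose depot. The genes were Srebf1 and Mlxipl, which encode transcription factors of the route, Acly, Acaca, Acacb and Fasn, which encode its enzymes, and Elovl6, Elovl5, Scd1 and Scd2, which encode enzymes that lengthen and desaturate its products. They were chosen by symbol, and all 10 were found among the 32285 gene rows of each matrix.

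In this route ATP citrate lyase splits citrate exported from mitochondria into cytosolic acetyl-CoA, acetyl-CoA carboxylase makes malonyl-CoA from it, and fatty acid synthase joins malonyl-CoA units into palmitate, which elongases and stearoyl-CoA desaturases then modify. SREBP-1c, a product of Srebf1 that responds to insulin, and ChREBP, the product of Mlxipl that responds to glucose, are the transcription factors best known to drive these genes. In adipocytes the route supplies fatty acids for storage as triglyceride, and a diet rich in fat is known to lower it.

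Gene expression was measured by single-nucleus RNA sequencing in 9 diet groups of male C57BL/6J mice, with 1 library per group and 5 mice pooled in each. The controls C, CC and CCC were 18, 26 and 39 weeks old. Their diet is called chow in the sample labels and low fat in the series text, and by the study's methods CC and CCC had been moved from the low-fat diet of C to a standard chow. A high-fat diet (HFD) was given to H mice for 12 weeks, up to an age of 18 weeks, and to HH mice for 25 weeks, up to an age of 31 weeks. HC and HHC mice lost weight during 8 weeks of chow after 12 and 25 weeks of HFD, and were 26 and 39 weeks old. CCH and HCH mice were both 30 weeks old and ate HFD for the last 4 weeks, CCH after the control diets alone and HCH after an earlier cycle of HFD (12 weeks) and chow (8 weeks). The label of each library also opens with a code, S075 for C, H, HH, CCH and HCH and S019 for CC, CCC, HC and HHC. The labels do not say what the code stands for, and libraries with the same code are called a set here. All 4 libraries on HFD at harvest shared a set with C alone among the controls.

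The values are counts of unique molecular identifiers (UMIs, which mark captured RNA molecules), and library totals ranged from 22599619 in CCC to 66615262 in HHC. Nuclei were put into 12 cell classes by marker genes that include no member, and between 58% of the nuclei in CCC and 83.4% in CCH were placed. Adipocyte-gated nuclei numbered 2603 in C, 912 in CC, and 1489 in CCC, against 187 in H, 472 in HH, 702 in CCH, 375 in HCH, 883 in HC and 414 in HHC, and 2 in H to 300 in CCC lay near the gate's threshold. Levels are CPM, the summed UMIs of a gene scaled to a common total of all UMIs of the class in that library. They are not per length, so that genes are compared between libraries and classes and not with each other. The 95% intervals given below cover counting error only. Adiponectin, resistin, adipsin and carbonic anhydrase 3 transcripts (Adipoq, Retn, Cfd and Car3), which the gate did not use, summed to 3455 CPM in HC up to 8660 CPM in HH in adipocyte-gated nuclei. Between libraries, fewer transcripts per nucleus and a different mix of nuclei inside the gate cannot be told apart. The macrophage marker UMIs of the median adipocyte-gated nucleus were 0 in C and CCH, 1 in CC and CCC, 2 in HC, 3 in H, HH and HCH and 7 in HHC, against 21 to 42 in macrophage-gated nuclei. All 10 macrophage markers were found in adipocyte-gated nuclei of each library. Their summed level was 173 to 698 CPM in the controls, 235 to 776 CPM on HFD at harvest and 619 to 1928 CPM after weight loss. Progenitor markers summed in adipocyte-gated nuclei to 891 CPM in C up to 1554 in HCH. The median adipocyte-gated nucleus held 3 to 6 of their UMIs, against 17 to 32 in progenitor-gated nuclei. Epithelial markers summed to 4.01 CPM in HH, 35.7 in CC and 116 in HC, against 4552 in epithelial-gated nuclei of HC. The part of these markers in the results was not tested.

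Promoter sequence is shown for 4 of the members whose windows hold motifs, because the factors of this route are known to act at promoters. Each line gives the 250 bases before the annotated start in RefSeq sequence of GRCm38.p6, 5′ to 3′ on the gene's strand. Capitals mark CCAAT (the NF-Y box), CACGTG (an E-box), GGGCGG (a GC box) and TCACNCCAC (an SRE-like motif) on either strand. The windows lie at chr11:100528001-100528250 (minus strand) for Acly, chr11:120824548-120824797 (minus) for Fasn, chr11:60222582-60222831 (minus) for Srebf1 and chr5:135089640-135089889 (plus) for Mlxipl.
Acly: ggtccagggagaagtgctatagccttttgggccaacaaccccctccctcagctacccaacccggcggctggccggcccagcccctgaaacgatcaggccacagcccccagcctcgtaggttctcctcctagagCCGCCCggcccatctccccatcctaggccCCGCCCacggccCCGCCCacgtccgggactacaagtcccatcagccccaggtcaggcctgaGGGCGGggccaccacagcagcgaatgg
Fasn: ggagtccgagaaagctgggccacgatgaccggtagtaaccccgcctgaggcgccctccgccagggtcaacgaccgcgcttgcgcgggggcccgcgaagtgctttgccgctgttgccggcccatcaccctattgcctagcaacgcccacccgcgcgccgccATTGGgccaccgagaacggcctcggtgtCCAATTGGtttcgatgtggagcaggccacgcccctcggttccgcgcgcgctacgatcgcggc
Srebf1: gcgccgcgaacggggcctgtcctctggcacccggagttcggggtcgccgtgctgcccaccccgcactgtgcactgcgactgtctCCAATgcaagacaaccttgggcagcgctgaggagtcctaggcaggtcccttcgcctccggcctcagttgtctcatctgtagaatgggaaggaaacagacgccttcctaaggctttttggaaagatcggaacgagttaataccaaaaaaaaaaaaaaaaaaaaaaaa
Mlxipl: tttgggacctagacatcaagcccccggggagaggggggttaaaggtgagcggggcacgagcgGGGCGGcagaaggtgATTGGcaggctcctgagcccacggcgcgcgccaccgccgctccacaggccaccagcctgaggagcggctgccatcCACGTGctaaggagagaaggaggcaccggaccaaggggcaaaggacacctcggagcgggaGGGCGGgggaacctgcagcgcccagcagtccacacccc
The Acly window held 4 GC boxes and the Fasn window 3 CCAAT boxes, of which a pair on opposite strands overlap. The Srebf1 window held 1 CCAAT box, and the Mlxipl window held 1 CCAAT box, 1 E-box and 2 GC boxes. Srebf1 had 2 further windows and Mlxipl 1, at starts inside the gene, and the windows shown are those at the outermost start. Which Srebf1 start gives SREBP-1c was not examined, so the window shown need not be its promoter. The further Srebf1 windows held 2 GC boxes each and 1 of them a CCAAT box, and the further Mlxipl window held the TCACNCCAC match. The windows of Acacb (1 CCAAT box) and Elovl5 (2 CCAAT boxes and 1 E-box) also held motifs and are not shown. In all, 8 members had 11 windows, and Scd1 and Scd2 had no entry. CCAAT stood in 6 of the 11 windows and in 33.8% of all 32851 windows, CACGTG in 2 and 6.02%, GGGCGG in 4 and 32.7%, and TCACNCCAC in 1 and 1.05%. These are matches of letters only.

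In adipocyte-gated nuclei the members did not all move in 1 direction. In the fit of HFD at harvest against chow given below, 1 of 10 had a positive estimate. The median log2 estimate was -0.58 for the members and -0.03 for all genes tested. In the libraries on HFD at harvest, Acaca and Acacb stood below control C, Scd2 stood above all 3 controls, and Fasn and Acly lay inside the range of the controls. After weight loss, library HC held the highest Acly, Fasn and Elovl6 of all 9 libraries, while HHC was within 2-fold of its control CCC for all 10 members. The controls differed among themselves, since C held more Acaca and Acacb and less Acly and Fasn than CC and CCC did.

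**Figure D1:**
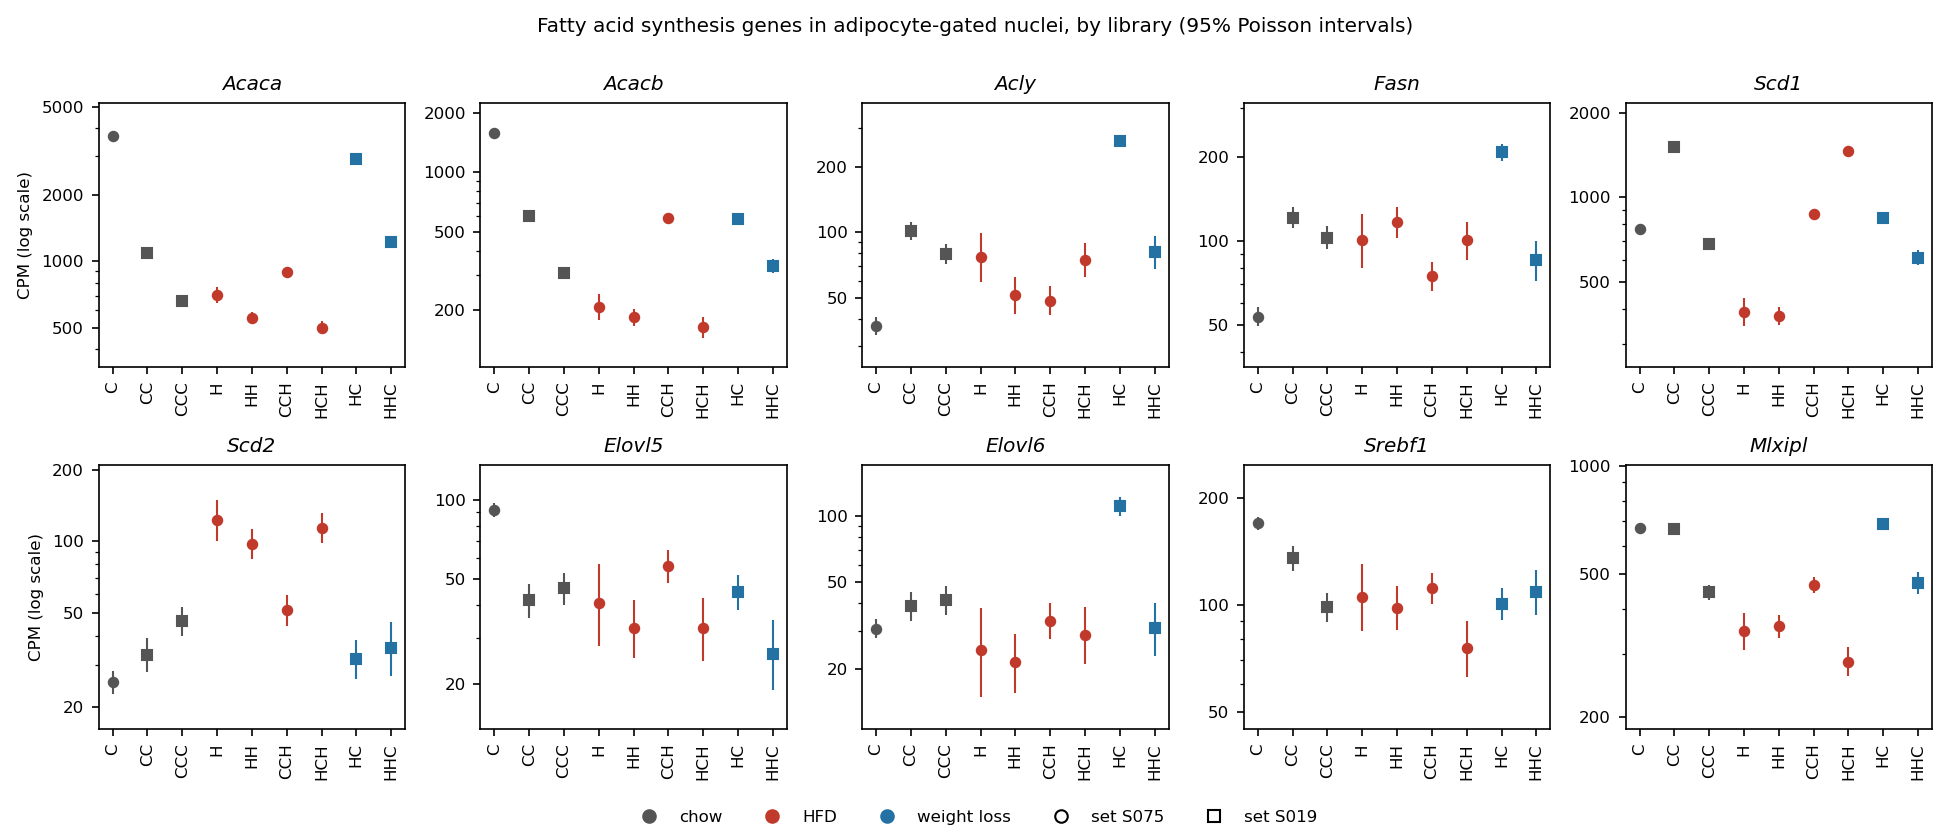
Level of each of the 10 members in adipocyte-gated nuclei of the 9 libraries, in CPM on a log axis, with 95% Poisson intervals that cover counting error only. Scd2 is higher in all 4 libraries on HFD at harvest (51.2 to 123 CPM) than in the 3 controls (25.4 to 45.9 CPM), and Acly, Fasn and Elovl6 are highest in HC.

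Of the transcription factors, Mlxipl (chr5:135089890-135138382, plus strand, GRCm38) was measured at 673 CPM in C, 665 in CC, and 445 in CCC, against 348 in H, 358 in HH, 466 in CCH, 286 in HCH, 690 in HC and 473 in HHC. H, HH and HCH were below every control, while CCH lay between CCC and CC, and both weight loss libraries lay inside or just above the range of the controls. Srebf1 (chr11:60199089-60222581, minus strand), counted here for all its isoforms together, stood at 170 CPM in C, 136 in CC and 98.4 in CCC. On HFD at harvest it stood at 106 in H, 98.3 in HH, 112 in CCH and 75.4 in HCH, and after weight loss at 101 in HC and 109 in HHC. The groups overlapped for both genes, with CCC the lowest control.

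Acly (chr11:100476353-100528000, minus strand), which supplies the cytosolic acetyl-CoA, was lowest in C. It stood at 37.3 CPM in C, 102 in CC, and 79.8 in CCC, against 77.4 in H, 51.7 in HH, 48.7 in CCH, 74.8 in HCH, 262 in HC and 81 in HHC. HC thus held 2.58 times the level of its control CC, and the other 6 libraries lay between C and CC.

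The carboxylase genes had the widest ranges. Acaca (chr11:84129672-84401651, plus strand) encodes acetyl-CoA carboxylase 1, the cytosolic form that feeds fatty acid synthesis. Its level was 3679 CPM in C, 1089 in CC, and 663 in CCC, against 705 in H, 557 in HH, 894 in CCH, 502 in HCH, 2905 in HC and 1218 in HHC. C and HC stood well above the other libraries, and H and CCH overlapped CC and CCC. Acacb (chr5:114146535-114250761, plus strand) encodes the mitochondrial form, whose malonyl-CoA is known to limit fatty acid oxidation. Its level was 1579 CPM in C, 599 in CC, and 307 in CCC, against 208 in H, 184 in HH, 582 in CCH, 164 in HCH, 580 in HC and 336 in HHC. H, HH and HCH were below all 3 controls, and CCH stood at the level of CC. Both genes are long, and the counts included intronic reads.

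Fasn (chr11:120805846-120824547, minus strand), which encodes fatty acid synthase, varied less. It stood at 53.6 CPM in C, 121 in CC, and 103 in CCC, against 101 in H, 117 in HH, 74.7 in CCH, 101 in HCH, 208 in HC and 85.1 in HHC. All libraries other than HC lay between C and CC.

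Elovl6 (chr3:129532355-129638495, plus strand), whose enzyme lengthens palmitate to stearate, had the same outlying library. It was measured at 30.6 CPM in C, 38.9 in CC, and 41.3 in CCC, against 24.6 in H, 21.6 in HH, 33.4 in CCH, 28.8 in HCH, 111 in HC and 30.7 in HHC. Elovl5 (chr9:77917364-77984519, plus strand), which acts on polyunsaturated fatty acids, was highest in C at 91.9 CPM and ranged from 26 CPM in HHC to 56 in CCH elsewhere.

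The desaturase genes parted from each other. Scd1 (chr19:44394455-44407879, minus strand), the main stearoyl-CoA desaturase of adipocytes, was measured at 769 CPM in C, 1514 in CC, and 682 in CCC, against 391 in H, 377 in HH, 874 in CCH, 1460 in HCH, 844 in HC and 608 in HHC. H and HH were the lowest libraries, whereas CCH and HCH, whose last HFD period was 4 weeks, lay inside the range of the controls. In CC the adipocyte level did not stand above that of other classes, with Scd1 at 1614 CPM in mesothelial-gated, 1653 in macrophage-gated and 1549 in progenitor-gated nuclei. Scd2 (chr19:44293674-44306864, plus strand), a neighbouring paralog, stood at 25.4 CPM in C, 33.2 in CC and 45.9 in CCC. It stood at 123 in H, 97.3 in HH, 51.2 in CCH and 114 in HCH, and at 31.9 in HC and 35.5 in HHC. The levels of the HFD libraries all lay above those of the controls and the weight loss libraries, but the counting interval of CCH (44 to 59.3 CPM) overlapped those of CCC (39.8 to 52.8 CPM) and HHC (27.1 to 45.7 CPM). The adipocyte level of Scd2 was above the mesothelial one in 2 of 9 libraries, H and HH (68.8 and 64.6 CPM in mesothelial nuclei). The paralogs are alike in sequence, and how reads that fit both were counted could move these values.

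The adipocyte-gated sums were then compared across the libraries with edgeR's quasi-likelihood test, taking libraries of 1 diet state as replicates (3 on chow, 4 on HFD at harvest and 2 after weight loss). Each state mixes ages and diet histories, so that the p-values measure the spread between these libraries and not between mice of a group. For HFD at harvest against chow, 0 of 10 members passed a Benjamini-Hochberg adjusted p of 0.05, and 0% of the 14539 genes tested passed. At an unadjusted p below 0.05 there were 5 members and 3628 genes, and DESeq2 called 1418 genes (9.76%), among them 2 members, Acaca and Scd2. Scd2 had the smallest p of the members, with a log2 fold change of 1.33 (SE 0.27, adjusted p = 0.0739 in edgeR). It stood higher in 4 of 4 HFD libraries than in any control, at the nearest 51.2 CPM in CCH against 45.9 in CCC. The share of all genes with this order was not counted.

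The other 9 members had negative estimates, and the median over the 10 members was -0.58, beside -0.03 over all genes tested. The estimate was -1.64 (SE 0.59) for Acaca and -1.69 (SE 0.64) for Acacb, with edgeR adjusted p = 0.132 and 0.143. Without control C they were -0.48 and -0.72 (edgeR adjusted p = 0.531 and 0.471). Mlxipl had -0.85 (SE 0.31) and Srebf1 -0.62 (SE 0.27), with edgeR adjusted p = 0.137 and 0.184. Those 4 genes and Scd2 make up the 5 at an unadjusted p below 0.05. Acly and Fasn had estimates of -0.34 and -0.04 with standard errors of 0.43 and 0.36, which turned to 0.48 and 0.60 when the set was added as a covariate. With the set in the fit this contrast sets the HFD libraries against C alone, since C is the only control of their set. Acaca then stood at -2.71 and Scd2 at 1.62. Without library CCH, edgeR called Scd2 (adjusted p = 0.0105), Acacb (log2 fold change -2.42, adjusted p = 0.0288) and Mlxipl (adjusted p = 0.0464), in a fit that called 2049 of 13942 genes (14.7%). With age as a block, a fit chosen after seeing the data in which the contrast rests on C and H alone, edgeR called 59 genes (0.406%) and 0 members.

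For weight loss against chow, 0 members and 0% of genes passed in edgeR, with 2 members and 1223 genes at an unadjusted p below 0.05, and DESeq2 called 105 genes (0.723%) and 0 members. Acly had a log2 fold change of 1.35 (SE 0.50, edgeR adjusted p = 0.486) and Elovl6 1.05 (SE 0.47, edgeR adjusted p = 0.583). Without library HC the estimates were 0.058 for Acly and -0.37 for Elovl6, and that of Fasn went from 0.76 to -0.22. The estimates of Acaca and Scd2 were 0.18 (SE 0.71) and -0.01 (SE 0.32), and with the set as a covariate that of Acaca was 1.34 (SE 0.54, edgeR adjusted p = 0.709). With age as a block edgeR called 20 genes (0.138%) and 0 members. The median was -0.02 for the members and -0.03 for all genes tested.

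Each group was also set beside its control as a ratio of 2 libraries, with no replicate and therefore no test, and past 2-fold is used to describe size. In H against C, 2 members were higher past 2-fold (Acly and Scd2), where 26.4% of 13706 genes were, and 3 were lower (Acaca, Acacb and Elovl5), where 11.6% of genes were. The median log2 ratio was -0.82 for the members and 0.26 for all genes. Acacb had a log2 ratio of -2.93 (-3.15 to -2.71), Acaca -2.38 (-2.50 to -2.27), Elovl5 -1.18 (-1.73 to -0.68), Acly 1.05 (0.65 to 1.44) and Scd2 2.27 (1.94 to 2.60). Scaling by TMM factors, which set the bulk of genes level, gave 1 member higher and 6 lower past 2-fold, where 19.4% and 17.4% of genes were, and moved the median of all genes to -0.09. Acly then stood at 0.71. Without the upper limit of genes per nucleus, adipocyte-gated nuclei numbered 607 in H and 3504 in C. In that setting Acly stood at 0.996, while Fasn (1.22) and Scd1 (-1.44) were past 2-fold, and the share of all genes was not counted. With the level in mesothelial-gated nuclei subtracted, Acly stood at 2.98 and Fasn at 1.06. In C the Acly level lay close to the mesothelial one (37.3 against 31.3 CPM, the latter from 48 UMIs). The subtracted Acly ratio thus rests on a small remainder.

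In HH against CC, 1 member was higher past 2-fold (Scd2), where 26% of genes were, and 2 were lower (Acacb and Scd1), where 10.8% of genes were. The pair crosses the sets and ages, and the same-age control of HH was not analysed here. Scd2 had a log2 ratio of 1.55 (1.24 to 1.87), Acacb -1.70 (-1.86 to -1.54) and Scd1 stood at 0.249 of its level in CC. The CC level of Scd1 lay below that of mesothelial nuclei in CC, so that no Scd1 ratio could be computed with the mesothelial level subtracted, and Scd1 was also lower in HH than in CC in mesothelial (155 against 1614 CPM), macrophage (141 against 1653) and progenitor nuclei (168 against 1549). Against C, of the same set but younger, Scd2 stood at 1.94 and Acacb at -3.10, and 2 members were higher and 4 lower past 2-fold, where 28.8% and 9.39% of 14170 genes were. With TMM scaling 1 was higher and 6 were lower than in CC, with Acaca, Acly, Elovl6 and Mlxipl added to Acacb and Scd1, where 21.2% of genes were higher and 15.1% lower. In Acly HH lay between the 2 controls, at -0.98 against CC and 0.47 against C.

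Within set S075, all 4 HFD libraries had ratios to C below 0 in log2 for Acaca (-2.87 to -2.04), Acacb (-3.26 to -1.44), Elovl5 (-1.50 to -0.71), Srebf1 (-1.17 to -0.61) and Mlxipl (-1.24 to -0.53). In the same libraries Scd2 (1.01 to 2.27), Fasn (0.48 to 1.12) and Acly (0.38 to 1.05) were above C. The controls CC and CCC also differed from C in most of these genes, with log2 ratios of -1.76 and -2.47 for Acaca, -1.40 and -2.36 for Acacb, 1.18 and 0.94 for Fasn and 1.45 and 1.10 for Acly. Those of Elovl5 were -1.14 and -0.99 and those of Srebf1 -0.33 and -0.79. Mlxipl stood at -0.017 in CC, with an interval that held 0 (-0.078 to 0.044), and at -0.60 in CCC. Scd2 was nearest between controls among the 3 genes above C, at 0.38 and 0.85. Since all these ratios share C, they do not count as separate evidence.

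**Figure D2:**
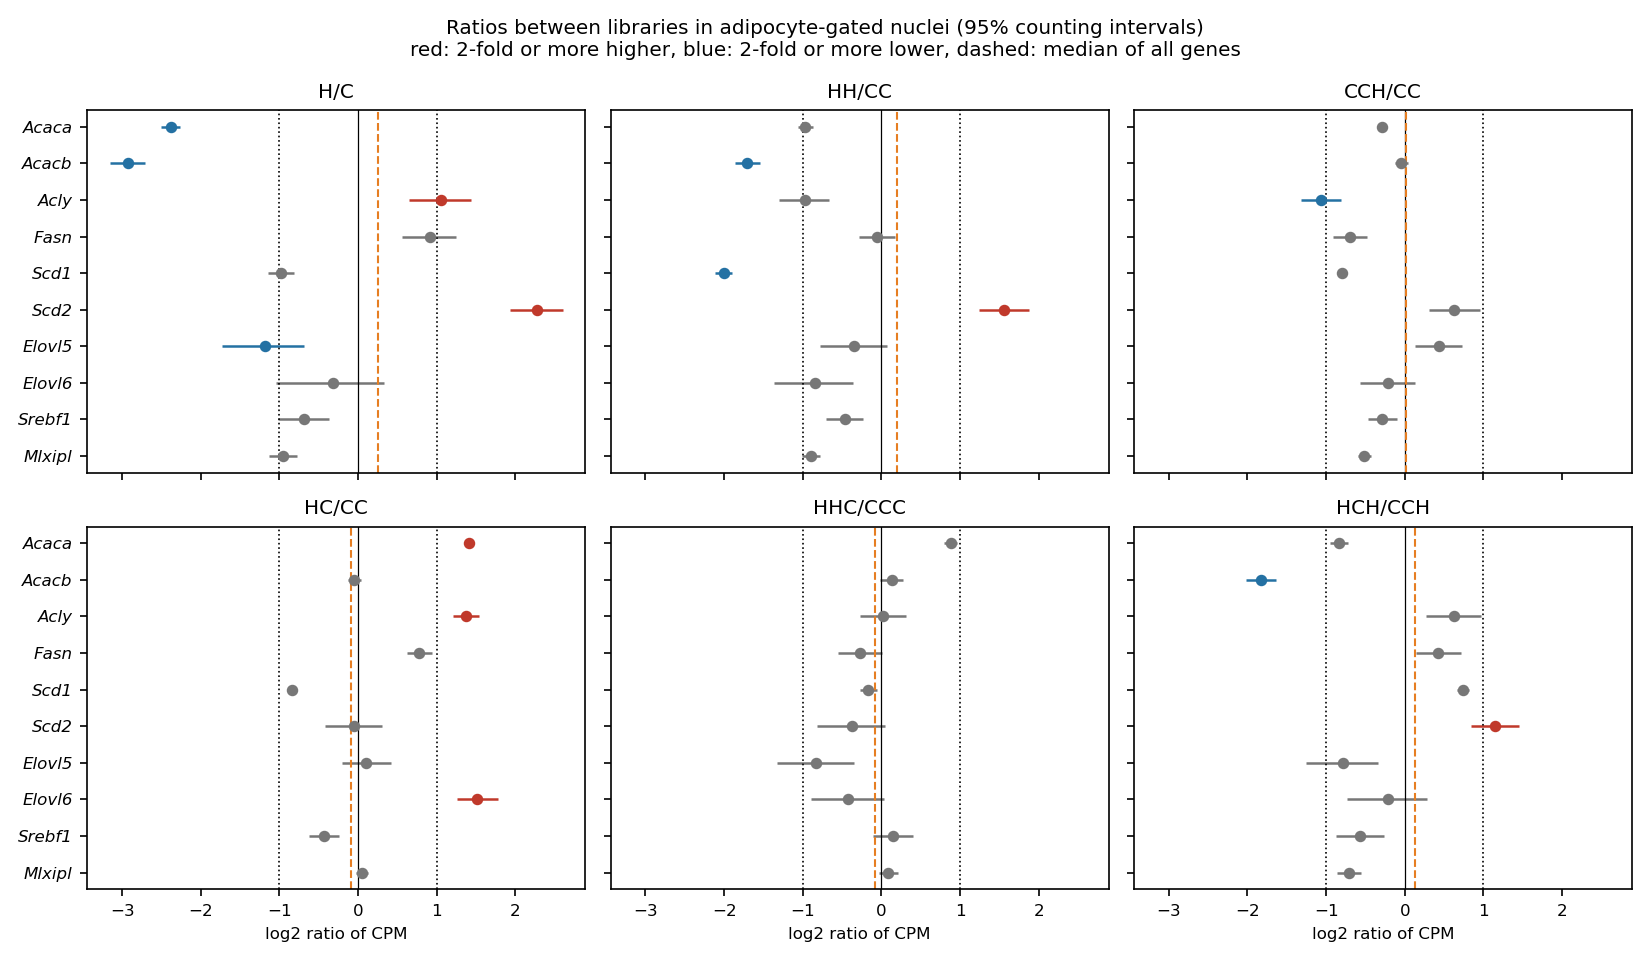
Log2 CPM ratio of each member in adipocyte-gated nuclei for the 6 pairs of libraries, with 95% intervals that cover counting error only, and lines at 0 and at 2-fold. Scd2 lies past 2-fold in H/C, HH/CC and HCH/CCH, and Acaca, Acly and Elovl6 in HC/CC.

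After weight loss, HC against CC had 3 members higher past 2-fold (Acaca, Acly and Elovl6), where 4.73% of 12647 genes were, and 0 lower, where 8.27% were. Both libraries carry the same set and age. The log2 ratios were 1.51 (1.25 to 1.78) for Elovl6, 1.42 (1.37 to 1.46) for Acaca, 1.37 (1.21 to 1.54) for Acly and 0.78 (0.62 to 0.94) for Fasn. Elovl6 was also higher in HC than in CC in epithelial (361 against 134 CPM), macrophage (46.5 against 23.6) and progenitor nuclei (65 against 40.1). The same held in mesothelial (41.2 against 30.1) and endothelial nuclei (31.5 against 26.6). Acacb at -0.05 (-0.13 to 0.04), Mlxipl at 0.05 (-0.02 to 0.13) and Scd2 at -0.06 (-0.42 to 0.31) had intervals that held 0, and Scd1 stood at -0.84 (-0.90 to -0.78), again against the CC level that lay below that of mesothelial nuclei. In HHC against CCC, also of 1 set and age, 0 members were past 2-fold in either direction, where 5.74% of genes were higher and 11.7% lower. There Acaca had the largest ratio, 0.88 (0.80 to 0.96), Acly stood at 0.02 (-0.28 to 0.31) and Fasn at -0.27 (-0.55 to 0.0024).

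With 4 weeks of HFD, CCH against CC had 0 members higher past 2-fold, where 6.4% of genes were, and 1 lower (Acly), where 9.58% were. The pair crosses the sets and compares 30 with 26 weeks of age. Acly stood at -1.06 (-1.32 to -0.80), Acacb at -0.04 (-0.13 to 0.04) and Scd2 at 0.63 (0.30 to 0.95). Against C, of the same set but 18 weeks old, Acly stood at 0.38, Acacb at -1.44, Acaca at -2.04 and Scd2 at 1.01, so that 1 member was higher and 2 were lower past 2-fold, where 6.64% and 5.55% of 13970 genes were. Without the limit of 3000 genes per nucleus, Acly was at -0.55 against CC, and Scd1 (-1.10) and Scd2 (1.29) were past 2-fold instead. The share of all genes past 2-fold was not counted in that setting. HCH against CCH, which differ by the earlier cycle of HFD and chow, had 1 member higher past 2-fold (Scd2), where 14.6% of 11863 genes were, and 1 lower (Acacb), where 2.5% were. Scd2 stood at 1.15 (0.84 to 1.45), Acacb at -1.82 (-2.01 to -1.64), Acaca at -0.83 (-0.94 to -0.72) and Mlxipl at -0.71 (-0.86 to -0.56). Scd2 was also higher in HCH than in CCH in mesothelial (134 against 71.3 CPM), macrophage (69 against 35.3), endothelial (182 against 104) and progenitor nuclei (82.9 against 49), and in both libraries its adipocyte level lay below the mesothelial one. Fasn at 0.43 (0.14 to 0.72), Acly at 0.62 (0.27 to 0.96) and Scd1 at 0.74 (0.66 to 0.82) were higher in HCH. Without the limit of 3000 genes per nucleus, which left adipocyte-gated nuclei at 2615 in CCH and 1614 in HCH, the Scd2 ratio was 0.98, and Acacb stayed past 2-fold at -1.32.

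Other genes around the route were counted from lists, and the median log2 estimate is given beside each count, against -0.03 for all genes in both contrasts. For HFD at harvest DESeq2 called 9.76% of all genes and 3628 of 14539 had an unadjusted p below 0.05, and for weight loss these were 0.723% and 1223, and the counts of each list stand against those shares. Of 10 genes for substrate and NADPH supply, edgeR called 0 for HFD at harvest (3 at an unadjusted p below 0.05) and DESeq2 called 2, Idh1, an NADPH source, and Slc25a10, the mitochondrial dicarboxylate carrier. Slc25a10 had a log2 fold change of 1.48 (SE 0.36, edgeR adjusted p = 0.0739). For weight loss edgeR called 0 of them (1 unadjusted) and DESeq2 0. The list's median was 0.29 for HFD at harvest and 0.09 for weight loss. Me1, malic enzyme, which supplies NADPH, had 1.18 (SE 0.39, edgeR adjusted p = 0.450) and stood 2.60-fold higher in HC than in CC, as did Acss2, acetyl-CoA synthetase, at 2.21-fold. In HHC against CCC they stood at 1.16-fold and 1.03-fold.

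Of 14 regulators, edgeR called 0 for HFD at harvest (1 unadjusted) and DESeq2 called 1, Insig1, which holds SREBP precursors in the endoplasmic reticulum and is itself an SREBP target. Insig1 had a log2 fold change of 2.74 (SE 0.47, edgeR adjusted p = 0.0739) and was 10.3-fold higher in H than in C, 12.5-fold higher in HH than in CC, 2.25-fold higher in CCH than in CC and 5.07-fold higher in HCH than in CCH. For weight loss edgeR called 0 regulators (0 unadjusted) and DESeq2 0. The median was -0.01 for HFD at harvest and -0.10 for weight loss.

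Of 11 genes of sterol synthesis and uptake, edgeR called 0 for HFD at harvest (2 unadjusted) and DESeq2 called 1, Hmgcs1, an early enzyme of sterol synthesis, at a log2 fold change of 1.27 (SE 0.25, edgeR adjusted p = 0.0739). Their median estimate was 0.61 for HFD at harvest, where that of the 10 members was -0.58, and 0.43 for weight loss, and 8 of the 11 were higher past 2-fold in H than in C, where 26.4% of all genes were. In HH against CC, 9 had enough UMIs and 3 were higher (Dhcr7, Fdps and Hmgcs1), where 26% of all genes were. Of 15 other elongation and desaturation genes, 10 passed the filter on low counts, edgeR called 0 (3 unadjusted) and DESeq2 called Fads3. Of 6 triglyceride synthesis genes edgeR called 0 (1 unadjusted) and DESeq2 0. For weight loss edgeR and DESeq2 called 0 in these 3 lists, with 1 elongation or desaturation gene at an unadjusted p below 0.05 and 0 in the other two. Their medians for HFD at harvest and weight loss were -0.24 and -0.03 for the elongation and desaturation genes and -0.16 and -0.31 for triglyceride synthesis.

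Among cell classes, adipocyte-gated nuclei had the highest median level over libraries for 5 of 10 members, the carboxylase genes Acaca and Acacb, Fasn, Srebf1 and Mlxipl. The other 5 were highest in epithelial-gated nuclei (Acly, Elovl6 and Scd2) or in endothelial-gated nuclei (Scd1 and Elovl5). For 10 classes with at least 50 nuclei in enough libraries, levels were ordered by their median.

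The clearest order was that of Mlxipl and Acaca. Mlxipl had a median of 466 CPM in adipocytes (286 to 690), 84.4 in epithelial nuclei (40.7 to 251) and 37.8 in T or NK cells, and it was 29.3 or below elsewhere. Acaca had 894 CPM in adipocytes (502 to 3679), 213 in mesothelial nuclei (157 to 417) and 132 in macrophages, the lowest class. For both, the adipocyte range lay above the next class, although Acaca reached 608 CPM in T or NK cells of 1 library, and the classes below overlapped each other. Within a library, adipocytes were above every other class in all libraries compared for Acaca, Acacb, Fasn, Srebf1 and Mlxipl.

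Fasn had a median of 101 CPM in adipocytes, 41.5 in epithelial nuclei, 37.9 in smooth muscle or pericytes, 28.5 in B cells, 26.7 in endothelial nuclei and 9.99 to 17.7 in the other 5 classes. Srebf1 had 106 in adipocytes, 51.7 in epithelial nuclei, 40.3 in T or NK cells and 23.1 to 32.9 in the other 7. Acacb had 336 in adipocytes and 114 in endothelial nuclei, followed by 56.4 in lymphatic endothelial nuclei and 55.6 in epithelial nuclei, down to 14.9 in macrophages. All neighbours in these 3 orders overlapped in range, adipocytes with the next class included.

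Acly had 166 CPM in epithelial nuclei and 77.4 in adipocytes, then 35.1 to 59.6 in the other 8 classes. Elovl6 had 182 CPM in epithelial nuclei and 85.7 in T or NK cells, both clear of the progenitors that followed at 47.7, and 30.7 in adipocytes. Elovl5 had 147 CPM in endothelial nuclei, 144 in lymphatic endothelial nuclei and 136 in T or NK cells, and adipocytes came ninth at 41.6. Scd2 had 120 in epithelial nuclei and 88.8 in endothelial nuclei, with adipocytes seventh at 45.9. Scd1 had 1071 in endothelial nuclei, 818 in smooth muscle or pericytes and 769 in adipocytes, and its ranges overlapped from the first class to the last. Apart from the step below T or NK cells for Elovl6, all neighbours in these 5 orders overlapped.

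**Figure D3:**
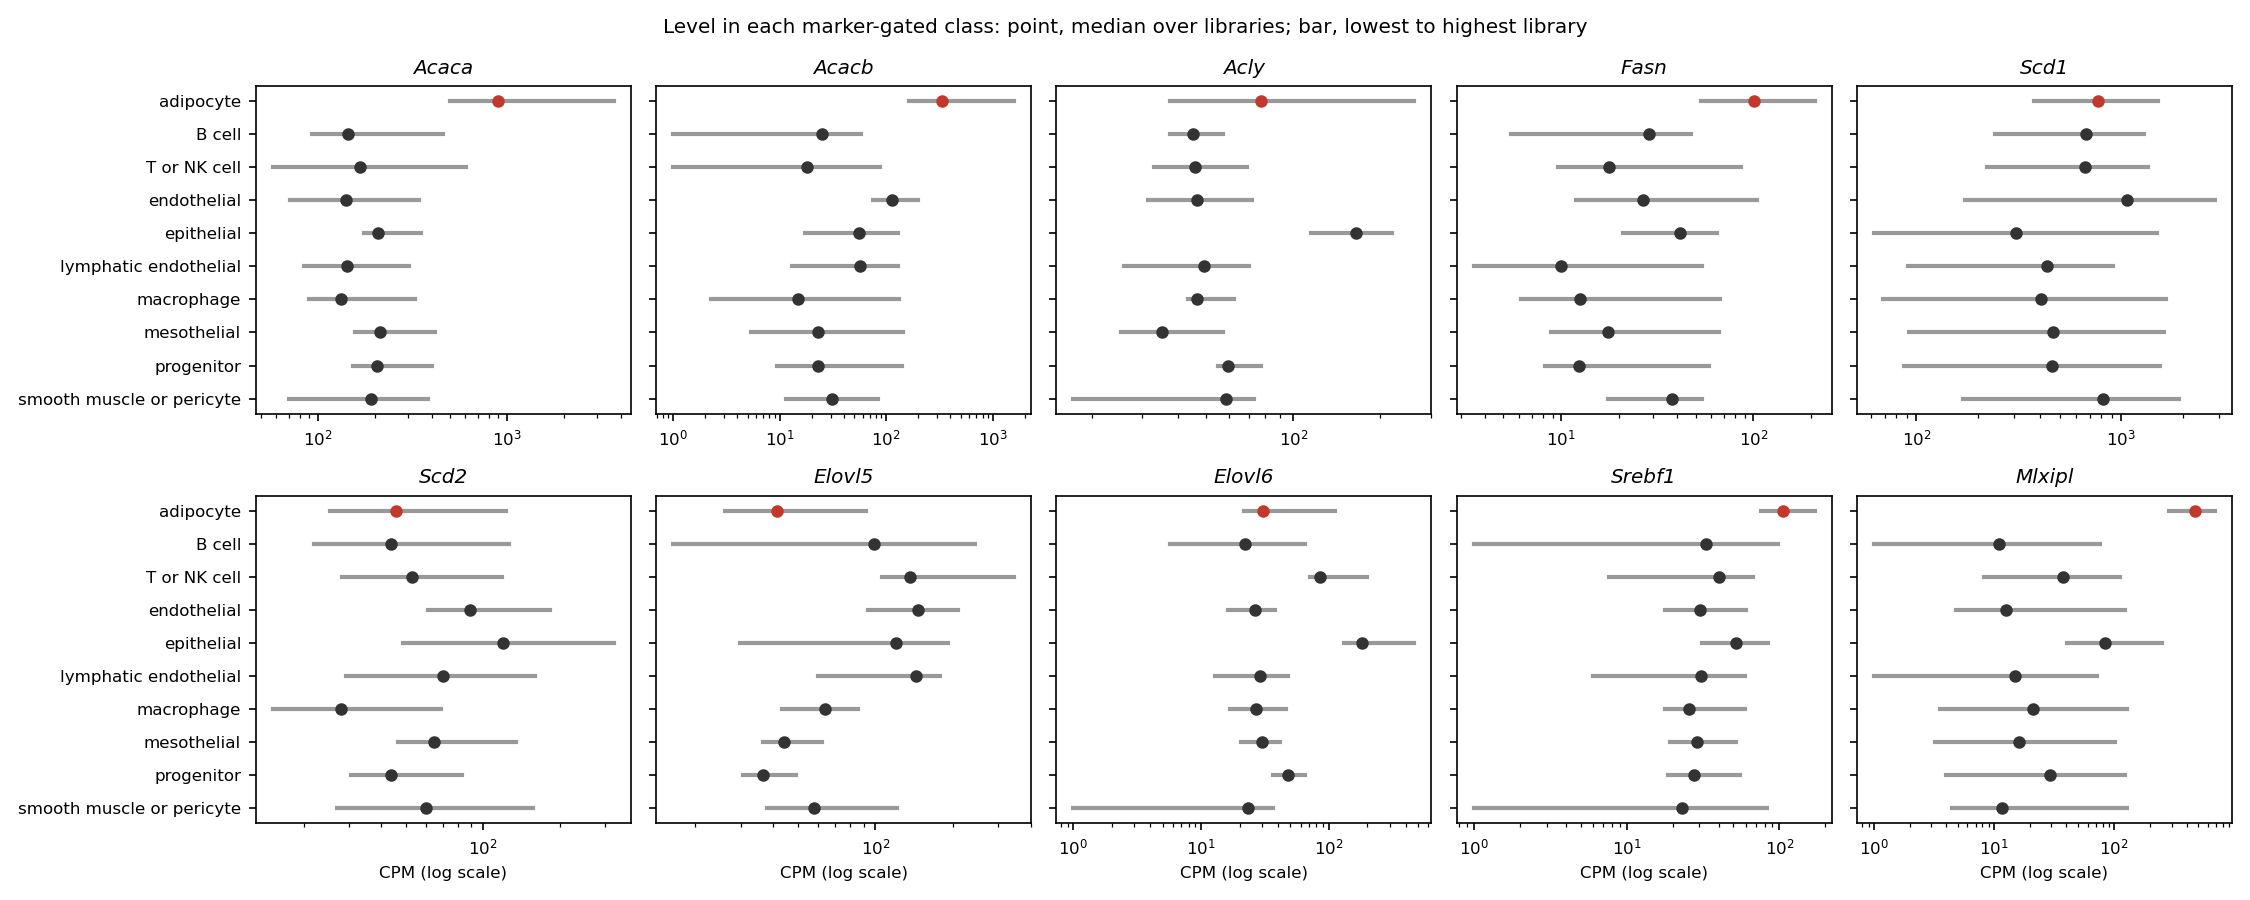
Level of each member in 10 gated cell classes, in CPM on a log axis. The point is the median over libraries with at least 50 nuclei of the class, and the bar runs from the lowest to the highest library. A lowest level of 0 is drawn at 1 CPM. Mlxipl in adipocytes lies clear of every other class and Acaca of the next class by median, while Scd1 is spread over all classes.

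Free RNA from adipocytes can enter every droplet of a library, so adipocyte transcripts were also read in a class that should lack them. The adipocyte transcripts Adipoq, Car3, Cfd and Retn together reached in mesothelial-gated nuclei 1.10% of their adipocyte level in H, 2.47% in HH and 50.4% in CC, with 7.90% to 20.3% in the other 6 libraries. Scd1 in the same nuclei was 23.7% of its adipocyte level in H and 107% in CC. Endothelial-gated nuclei held more Acacb than mesothelial-gated nuclei in 9 of 9 libraries, with a median ratio of 3.91 (1.38 to 18.6), although their own percent for the 4 adipocyte transcripts was also higher, at 2.11% in H and 96.6% in CC. Elovl5 was higher in endothelial than in mesothelial nuclei with a median ratio of 2.90 and Scd1 with 2.30, both in 9 of 9 libraries. How much of these levels was free RNA was not tested.

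**Figure D4:**
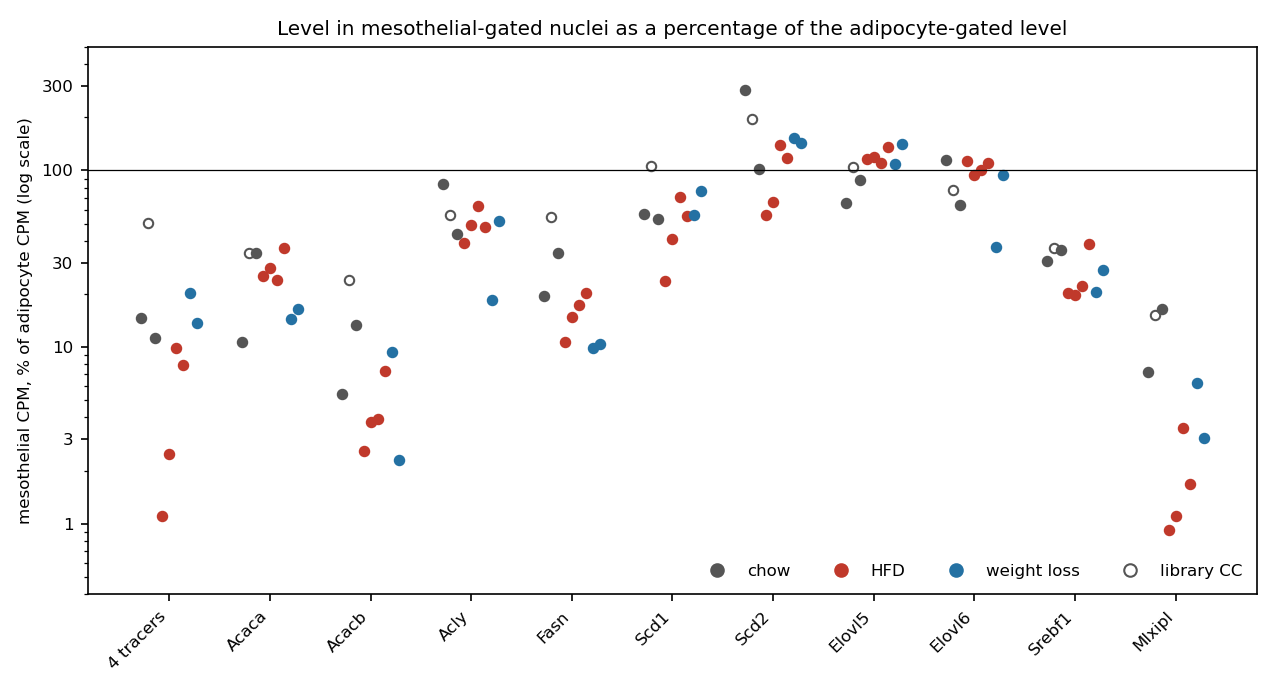
Level of each member in mesothelial-gated nuclei as a percent of its level in adipocyte-gated nuclei of the same library, 1 point per library with CC as an open circle, beside the same percent for 4 adipocyte transcripts. Mlxipl lies at 0.928% to 16.4% and Acacb at 2.31% to 23.9%, and Scd1 reaches 107% in CC.

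Shares of nuclei with at least 1 UMI were compared after each nucleus was thinned to 1500 UMIs, and nuclei with fewer were left out. These were 702 of 8037 adipocyte-gated nuclei (1.93% to 20.5% of a library's) and 521 of 3640 mesothelial-gated ones (1.46% to 28.4%). Adipocyte-gated nuclei had larger shares than mesothelial-gated nuclei in 9 of 9 libraries for Acaca, Acacb, Acly, Fasn, Srebf1 and Mlxipl. Mlxipl was found in 33.7% to 61.3% of thinned adipocyte nuclei and in 0.8% to 15.8% of mesothelial ones, and Fasn in 7.40% to 21.4% and 0.813% to 8.42%. Acacb was found in 19.7% to 80.4% of thinned adipocyte nuclei and in 0.64% to 19.8% of mesothelial ones. For Scd1 the adipocyte share was larger in 7 libraries, for Elovl5 and Elovl6 in 5 and for Scd2 in 3. The mesothelial share holds free RNA and any expression by mesothelial cells, which were not told apart here. Before thinning the adipocyte share was the larger in 9 libraries for Scd1, 8 for Elovl5, 6 for Elovl6 and 4 for Scd2, and the median UMI count of adipocyte nuclei was above that of mesothelial nuclei in 8 of 9 libraries (in CCC they were 2491 and 2602).

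In the other classes the same edgeR test was run per class. In macrophage-gated nuclei, 4 members fell with HFD at harvest, where 6.44% of 15648 genes were called. They were Acacb (log2 fold change -3.87, SE 0.85), Mlxipl (-3.11, SE 0.69), Fasn (-2.26, SE 0.55) and Srebf1 (-1.14, SE 0.26), with edgeR adjusted p from 0.0452 to 0.0474. Free adipocyte RNA moved the same way: the 4 adipocyte transcripts summed in macrophages to 850 CPM in C, 2426 in CC and 664 in CCC, against 78.5 in H, 218 in HH, 570 in CCH and 554 in HCH. Its part in the result was not tested. With the set as a covariate, or with a stricter gate, edgeR called 0 of the 4, and 0 of all 15648 and 15266 genes tested, with 2175 and 4889 at an unadjusted p below 0.05. Leaving out any library other than CCH left 0 or 1 member called, in fits that called 288 genes (1.78%) without C and 0 or 1 gene without any of the other 7. With age as a block edgeR called 0 of the 4 and 0 genes, with 3818 at an unadjusted p below 0.05. DESeq2 called 21.3% of genes and 5 members, Acaca beside the 4. For weight loss edgeR called 0% of genes and 0 members in macrophages, with 0 members unadjusted, and DESeq2 called 6.07% of genes and 0 members.

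In progenitor-gated nuclei edgeR called 0% of 15728 genes in each contrast. For HFD at harvest 6 members and 3801 genes had an unadjusted p below 0.05, and DESeq2 called 8.92% of genes and 4 members, Acacb, Fasn, Mlxipl and Srebf1. For weight loss 1 member and 1776 genes had an unadjusted p below 0.05, and DESeq2 called 1.41% of genes and 0 members. In endothelial-gated nuclei edgeR called 0.0453% of 11041 genes for HFD at harvest and 0.00906% for weight loss, and 0 members. There 5 and 2 members had an unadjusted p below 0.05, as had 1843 and 737 genes. DESeq2 called 2 members (Acaca and Mlxipl) where it called 4.94% of genes, and 0 members where it called 0.353%. In mesothelial-gated nuclei edgeR called 0.00889% of 11245 genes and 0% of genes, and 0 members. There 5 and 2 members had an unadjusted p below 0.05, as had 2249 and 998 genes. DESeq2 called 3 members (Acaca, Acacb and Mlxipl) where it called 4.48% of genes, and 0 members where it called 0.347%. The estimates of Acacb and Mlxipl for HFD at harvest were -2.97 and -3.34 in mesothelial nuclei, larger than the -1.69 and -0.85 in adipocytes, in nuclei where the 4 adipocyte transcripts also stood lowest in H and HH.

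Over all nuclei of a library, a level also depends on the share of adipocytes. Adipocyte-gated nuclei held 3.89% of the gated UMIs in H and 50.04% in CCC. These shares depend on the upper limit of genes per nucleus, which removed adipocyte-gated nuclei unevenly. With and without it they numbered 187 and 607 in H, 702 and 2615 in CCH and 375 and 1614 in HCH. In C they numbered 2603 and 3504, and in CCC 1489 and 1968. Progenitor-gated nuclei in H numbered 1916 and 2049. The levels over all nuclei below are given with the limit only. Acacb over all nuclei stood at 679 CPM in C, 309 in CC and 158 in CCC, against 15.3 in H, 20.7 in HH, 107 in CCH and 22 in HCH, and at 171 in HC and 40.7 in HHC. Adipocyte-gated nuclei held 45% (HCH) to 93.9% (C) of its gated UMIs. Fasn over all nuclei was 30.5 CPM in C, 96.3 in CC, and 70.1 in CCC, against 13.2 in H, 17.3 in HH, 21.7 in CCH, 22.7 in HCH, 75.4 in HC and 22.6 in HHC, so that H and HH were the lowest libraries although within adipocytes they lay above C. In bulk values of this kind, fewer adipocytes and less RNA per adipocyte cannot be told apart. Scd2, mostly outside adipocytes, stood at 31.5 CPM in HC up to 99.2 in HCH, with 7.84% (HCH) to 47% (CCC) of its gated UMIs in adipocytes.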

How the data were processed

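Epididymal adipose tissue nuclei of 9 diet groups were profiled with 10x Genomics 3′ chemistry (v3.1). The deposited files hold raw UMI counts that the authors made with Cell Ranger 6.1.2, intronic reads included, on the 10x mm10 (GRCm38) reference; the authors' later Seurat 4.1.0 steps were not used here. Library totals ran from 22599619 to 66615262 UMIs. Groups came from the sample labels.

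Nuclei with 500 to 3000 genes and at most 40000 UMIs were kept. Each was placed in 1 of 12 classes by 94 marker genes, with a Poisson log-likelihood ratio of at least 5, a second class at most 0.5 of the first and at least 3 markers. A stricter gate (20 and 0.25) was an alternative. No doublet caller was run; nuclei with markers of 2 classes (0.834% to 3.03%) were left out. Libraries shared at most 55 barcodes (0.493% of the smaller). Totals exclude Malat1 and mitochondrial genes. Genes with 20 UMIs or more over a pair entered the pair shares.

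Summed counts per class were tested with edgeR 4.0.16 (TMM, filterByExpr, quasi-likelihood test, Benjamini-Hochberg over all genes tested) in R 4.3.3, with DESeq2 1.42.0, no filter on low counts, no gene limit, the code in the labels (S019 or S075) as covariate, age as a block (added after seeing the data), CCH and HCH as their own state and each library left out as alternatives. Intervals are exact Poisson for CPM and exact conditional for ratios. The fits were tested on simulated data. All members are named. Values of other genes were to be given where they passed the edgeR test; none did in adipocytes, and those named (called by DESeq2 or past 2-fold in a pair) were chosen after their values were seen. The members and lists were chosen with earlier results of these data known. Gene positions are from GENCODE vM21 and promoters from RefSeq. Python 3.11.15 (numpy 2.4.6, pandas 2.3.3, scipy 1.17.1) was used.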

Additional observations from a re-analysis of the deposited data

Results flagged for a closer look

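Acacb in library CCH stood apart from the other 3 libraries on HFD at harvest, at 582 CPM in adipocyte-gated nuclei, with a gap of 0.897 of the whole range of the 4. This check was run on 10 genes and marked 1. Among like replicates chance marks about 1 in 20 groups. The 4 libraries differ in diet history and span several ages, so that this rate need not hold here.

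Acly had opposite signs in the 2 comparisons of HFD with a control, 1.05 in H against C and -0.98 in HH against CC, a difference of 2.03 in log2 ratio that was not tested. C and CC differ in Acly themselves, as given above. The 2 ratios were 0.71 and -1.22 with TMM scaling, and 0.996 and -0.27 without the upper limit of genes per nucleus.

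In Scd1 and Elovl5, the only members flagged for it, the last 4 weeks of HFD went with opposite signs in mice without and with an earlier cycle of HFD. Scd1 had log2 ratios of -0.79 in CCH against CC and 0.79 in HCH against HC, a difference of -1.58. In CC, Scd1 did not stand above other classes (1514 CPM in adipocyte-gated nuclei, 1614 in mesothelial, 1653 in macrophage and 1549 in progenitor nuclei), and the CCH/CC ratio with the mesothelial level subtracted could not be computed. The same directions were seen in those 3 classes, with CCH at 618, 502 and 467 CPM, and with HCH above HC in each (808 against 475, 739 against 388 and 748 against 442 CPM). How much of these levels was free RNA was not tested. Elovl5 had 0.43 (0.13 to 0.73) and -0.46 (-0.94 to -0.0027), a difference of 0.889. Its adipocyte level lay below the mesothelial one in CC, CCH, HC and HCH. Mesothelial nuclei had the same directions, with Elovl5 at 43.6 CPM in CC, 62.1 in CCH, 48.7 in HC and 44.4 in HCH. In macrophage, progenitor and endothelial nuclei, CCH against CC and HCH against HC had the same sign. Against C, the control of their own set, CCH and HCH had the same sign in both genes, with 0.18 and 0.92 for Scd1 and -0.71 and -1.50 for Elovl5. Neither difference was tested, and both pairs set libraries of set S075 against libraries of set S019.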

How the results depend on the processing

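Each group had 1 library, so that the tests rest on pooled diet states, and of the counts of calls under the alternatives 172 stayed within 1.5 times the count given and 55 moved further. The fewest adipocyte-gated UMIs were 814040, in H, whose counting intervals are the widest for a given level. The labels give no replicate numbers that pair libraries, but some share an age, and a fit with age as a block (chosen after seeing the data; 2 residual degrees of freedom, HFD resting on C and H, weight loss on CC with HC and CCC with HHC) called 59 genes for HFD at harvest and 20 for weight loss in adipocytes, and 0 members in any of the 5 classes, macrophages included. With that block the estimates turned for HFD to 0.71 (Acly) and 0.56 (Fasn) and for weight loss to 0.11 (Acacb) and 0.14 (Mlxipl). Of the fitted member values under the alternatives, 310 kept their side and direction, 43 lost a call, 11 gained one and 28 turned direction; of the pair ratios, 139 stayed inside their interval and 102 left it, and 26 changed sign, 7 of them with C as control, of which 1 had been past 2-fold (Acly in CCH/CC). The sign changes with C as control were Acly (0.47) and Fasn (1.12) in HH/CC and Acly (0.38), Fasn (0.48), Scd1 (0.18), Elovl5 (-0.71) and Elovl6 (0.12) in CCH/CC. The causes were not tested.

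In adipocytes, HFD at harvest called 2 members by DESeq2, 1 without the gene limit, 3 without the low-count filter, 2 with CCH and HCH apart, and 0 to 3 with 1 library left out (3 without CCH). All genes called were 1418, 317, 1958 and 2372 in the same order and 0 to 2049 with 1 library left out (344 without C, 2049 without CCH). For weight loss they were 105 by DESeq2, 286 without the filter and 0 to 1 with 1 library left out. Members called for HFD were 4 (DESeq2) and 0 to 5 (1 library left out) in progenitors, 0 (stricter gate), 0 (set as covariate) and 0 to 6 in macrophages, 2 and 0 to 3 in endothelial nuclei and 3 and 0 to 4 in mesothelial nuclei. Among these, leaving out C gave 3 in progenitors, 3 in endothelial and 1 in mesothelial nuclei, leaving out CCH gave 5, 2 and 4, and leaving out HC or HHC gave 2 in endothelial and 2 in mesothelial nuclei. Without C, 0.764%, 6.44% and 1.1% of all genes were called in these 3 classes, and without HC or HHC 0.153% to 0.348%. Without CCH, 14% of all genes were called in progenitors, 32.7% in macrophages, 4.2% in endothelial and 11% in mesothelial nuclei.

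For pairs, TMM gave 1 member higher and 6 lower in H/C, where 19.4% and 17.4% of genes were. It gave 6 lower in HH/CC, where 15.1% of genes were, and 0 higher in HCH/CCH, where 11.3% were. With the mesothelial level subtracted, no ratio could be computed where a level was at or under it, and such members were not counted. These were Scd2 and Elovl5 in all 6 pairs, Elovl6 in 3, and Scd1 in the 3 pairs with CC. Of the members left, 0 were higher in HH/CC, 1 higher and 2 lower in HHC/CCC, and 2 higher and 2 lower in HCH/CCH. Scd2 stood above the mesothelial level in HH (97.3 against 64.6 CPM) and below it in CC (33.2 against 64.7 CPM). Elovl6, 1 of the 2 lower in HHC/CCC, lay close to the mesothelial level in HHC (30.7 against 28.8 CPM). With C as control, HH had 2 higher and 4 lower and CCH 1 higher and 2 lower (the latter chosen after seeing the data). Without the gene limit, CCH/CC had 1 higher (Scd2) and 1 lower, Scd1 in place of Acly, and HCH/CCH had 0 higher. In H/C, Fasn then took the place of Acly among the higher members, and Scd1 joined the lower ones. The share of all genes past 2-fold was not counted without the gene limit or with the mesothelial level subtracted.

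Log2 estimates for HFD at harvest turned for Acly to 0.48 with the set and 0.11 without the gene limit, and ran from -0.63 to 0.028 with 1 library left out (above 0 without CC). For Fasn they turned to 0.60 with the set, 0.20 without the gene limit and 0.051 with CCH and HCH apart, and ran from -0.29 to 0.25 (above 0 without CC or CCH). For weight loss, leaving out 1 library gave Acaca -0.77 to 1.34 (below 0 without CC, CCC or HC), Fasn -0.22 to 1.34 and Elovl6 -0.37 to 1.75 (both below 0 without HC), Acacb -1.50 to 0.090 (above 0 without C), Scd1 -0.84 to 0.044 (above 0 without CC), Scd2 -0.15 to 0.13 (above 0 without CCC or HHC) and Mlxipl -0.47 to 0.34 (above 0 without C, CC or HHC). Acacb turned to 0.089 and Mlxipl to 0.14 with the set, and Scd2 to 0.10 with the stricter gate and 0.087 without the gene limit.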

Other observations

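Of 9632 other genes with enough UMIs in adipocyte-gated nuclei, those whose levels followed the mean of the members most closely over the 9 libraries were Slc9a8 (Pearson's r = 0.964), Shpk (0.944), Dpf3 (0.943), Smurf1 (0.942) and Nmnat3 (0.940), on log2 levels. Ncam1 (r = 0.931) reached 36.1 CPM in HC and 8.79 CPM or below in the other 8 libraries. For Fasn alone the closest were Akt2 (0.965), which encodes a kinase of insulin signalling, Glb1 (0.959) and Ano10 (0.948). Akt2 stood at 164 CPM in HC and 89.7 CPM in C, its highest and lowest libraries, as for Fasn. The points share their libraries and depth, and the values are a description over 9 libraries.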
